A study of Mus musculus with 12 samples.

Results

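Tumors of Ras-transformed myofibroblasts that carried intact Vnn1 were compared with tumors of the same cells without it, over all genes on the array. The comparison takes 8 of the 12 tumors of the series, 4 named VR and 4 named R. All tumors grew from J2A, a line of aortic myofibroblasts from C57BL/6 mice that lack p16, p19 and Vnn1, so that both groups share these deletions. R cells received a retroviral vector for H-RasV12 and GFP with no Vnn1, and VR cells received the same vector with intact Vnn1 under a CMV promoter. A further group of 4 tumors, VdR, carried a catalytically deficient Vnn1 and is used here where its values bear on the VR and R tumors. In each case the same number of cells was grafted under the skin of female nude mice, which have few T cells, and tumors were taken after 2 to 3 weeks by the labels and at 3 weeks by the methods. No repeat of the transduction of J2A is described, so the tumors of 1 group are repeats of the grafting step alone, and p-values measure only the spread between these tumors. The study also transformed the lines H1 and I1, which are not on these arrays. The methods describe RNA of the whole tumor, whereas the sample labels mention sorted cells. Genes of host blood vessels and leukocytes were measured in every tumor.

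Vnn1 is a pantetheinase, an enzyme held at the outer cell surface that splits pantetheine into pantothenate, the precursor of coenzyme A, and the aminothiol cysteamine. Myofibroblasts are contractile cells that secrete much of the matrix of healing tissue and tumors. Their behavior is set by secreted factors such as Wnt, BMP, TGF-beta, FGF and PDGF, by integrins that bind the matrix, and by transcription factors that keep a record of where in the body the cells came from.

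Values are log2 expression from Affymetrix mouse gene arrays, and differences are VR minus R on that scale. The values of 4 tumors are given in the order of the tumor numbers 1, 2, 4 and 5, which come from the sample names and are not used as pairs in the reported fit. Of 16573 genes tested with limma, 13.6% had higher and 7.48% had lower values in VR tumors than in R tumors at an adjusted p under 0.05. These shares are the background for every count of genes called between VR and R tumors below. List counts of at most 5 genes are coarse: 43 of 71 such counts moved by more than 1.5 times when some single tumor of the 8 was left out. For larger counts the tumors that did so are named. All VR tumors lay above all R tumors for 15.3% of the genes tested and below them for 10.5%. The median difference over all genes was -0.01. The 25% of genes with the lowest mean level, under 6.42, had a median of -0.06, and 4.78% of them were called higher and 3.45% lower. The 25% with the highest level, above 9.57, had a median of 0.02, with 13.5% higher and 11.5% lower. Within R tumors, pairs of arrays correlated at 0.988 to 0.996 across genes, and within VR tumors at 0.988 to 0.994.

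Markers of host cells and of low oxygen also separated the groups, and they stand beside every result that follows. Of 19 macrophage markers, 14 were higher and 0 lower in VR tumors. Their mean level ran from 8.88 to 9.16 in R tumors and from 9.73 to 9.91 in VR tumors, without overlap. In the VdR tumors the level ran from 9.83 to 10.08, and 16 of the 19 markers were higher than in R tumors. Over all genes tested, 6.58% were higher and 2.81% lower in VdR than in R tumors. Between VR and VdR tumors 0 of these markers were called, where 1.77% of all genes tested were higher and 1.67% lower. Of 23 genes of the hypoxia response, 0 were higher and 19 lower, with mean levels of 9.59 to 10.51 in R and 9.16 to 9.37 in VR tumors. In bulk tumors, fewer cells of a type and less RNA per cell cannot be told apart. With the macrophage level of each tumor as a covariate, an alternative chosen after seeing the data, 3 genes were called higher and 55 lower. Only 4 of these 58 genes were also called without the covariate. With the hypoxia level as the covariate, 423 were called higher and 281 lower, and 493 of these 704 genes were also called without it. These fits take the slope on the level from the spread within groups over all 12 arrays. Neither level overlapped between R and VR tumors, so the groups are compared at a shared level by extrapolation. The counts therefore cannot separate group from covariate. The part of macrophages and of hypoxia in the single results below was not tested.

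**Figure D1:**
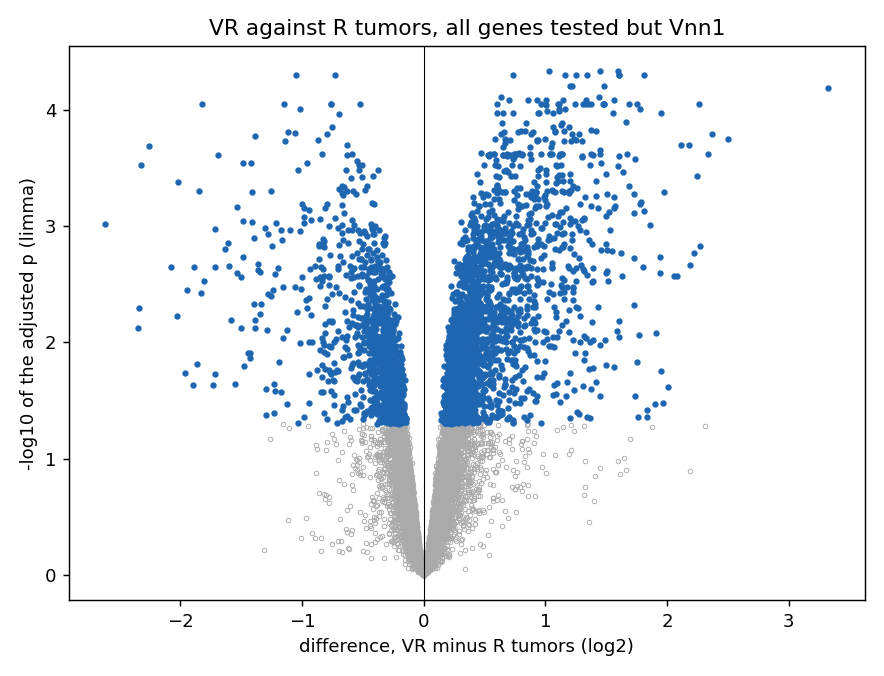
Difference between VR and R tumors (horizontal axis, log2) against the adjusted p of limma (vertical axis, minus log10) for the 16573 genes tested except Vnn1, which was left out of the plot, 1 point per gene. Filled points are genes called at an adjusted p under 0.05, and more of them lie to the right (13.6% of genes) than to the left (7.48%).

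Vnn1 itself measured 5.70, 5.53, 5.75 and 5.83 in the R tumors and 11.26, 10.54, 11.06 and 10.64 in the VR tumors. All 4 VR tumors lay far above all 4 R tumors, as their labels say. The groups were 5.17 apart, and the two-sided exact permutation test gave p = 0.0286, the smallest p that 4 tumors against 4 allow.

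Outside the immune genes, the large rises included a junction gene and genes of the loose connective matrix. Cldn1, a claudin of tight junctions, measured 6.91, 7.46, 5.97 and 6.46 in the R tumors and 9.90, 10.27, 10.06 and 9.88 in the VR tumors. It was 10-fold higher in VR tumors, and the VR tumors lay within a narrow band while the R tumors spread widely. Lum, the collagen-binding proteoglycan lumican, measured 9.06, 9.12, 8.33 and 8.79 in the R tumors and 10.66, 11.67, 11.77 and 11.20 in the VR tumors. Dpt, which encodes the matrix protein dermatopontin, measured 9.55, 9.57, 8.83 and 8.72 in the R tumors and 10.87, 11.91, 11.90 and 11.33 in the VR tumors. In both genes the groups did not overlap, and VR tumor 1 was the lowest of its group. Prelp, a proteoglycan that links basement membranes to connective tissue, differed by 2.22 (SE 0.37, adjusted p = 0.0017). Srpx, a sushi-repeat matrix protein, differed by 2.11 (SE 0.24, adjusted p = 0.0002).

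Cyp1b1, a cytochrome P450 that oxidizes estrogens and polycyclic hydrocarbons, measured 7.50, 8.63, 6.77 and 6.65 in the R tumors and 8.82, 9.76, 9.74 and 9.55 in the VR tumors. R tumor 2 came close to the lowest VR tumor, and the groups did not overlap. Penk, which encodes the precursor of the enkephalin peptides, measured 10.16, 10.59, 10.27 and 10.69 in the R tumors and 12.36, 12.06, 12.54 and 12.57 in the VR tumors, a difference of 1.95 (SE 0.20, adjusted p = 0.000106).

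Outside the hypoxia genes, the large falls included signaling and development genes. Bmp2, a bone morphogenetic protein, measured 10.71, 9.40, 11.23 and 9.72 in the R tumors and 7.38, 7.02, 8.02 and 8.16 in the VR tumors. All VR tumors lay below all R tumors, and the R tumors spread widely. Npr3, the clearance receptor for natriuretic peptides, measured 11.03, 10.33, 11.01 and 9.72 in the R tumors and 8.64, 7.92, 7.83 and 8.42 in the VR tumors, and again the groups did not overlap. Chrm3, the M3 muscarinic acetylcholine receptor, measured 9.94, 8.98, 10.01 and 9.33 in the R tumors and 8.77, 6.31, 6.47 and 7.33 in the VR tumors. VR tumor 1 lay close to the lowest R tumor, and the other VR tumors were far lower. Dmp1, a phosphoprotein of mineralized matrix, fell by 2.03 (SE 0.43, adjusted p = 0.00588). Prokr2, a receptor for prokineticins, had a difference of -1.97 (SE 0.52, adjusted p = 0.0183), which lost its call without R tumor 4. Fam78b, whose role is little known, fell by 2.02 (SE 0.26, adjusted p = 0.000417).

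**Figure D2:**
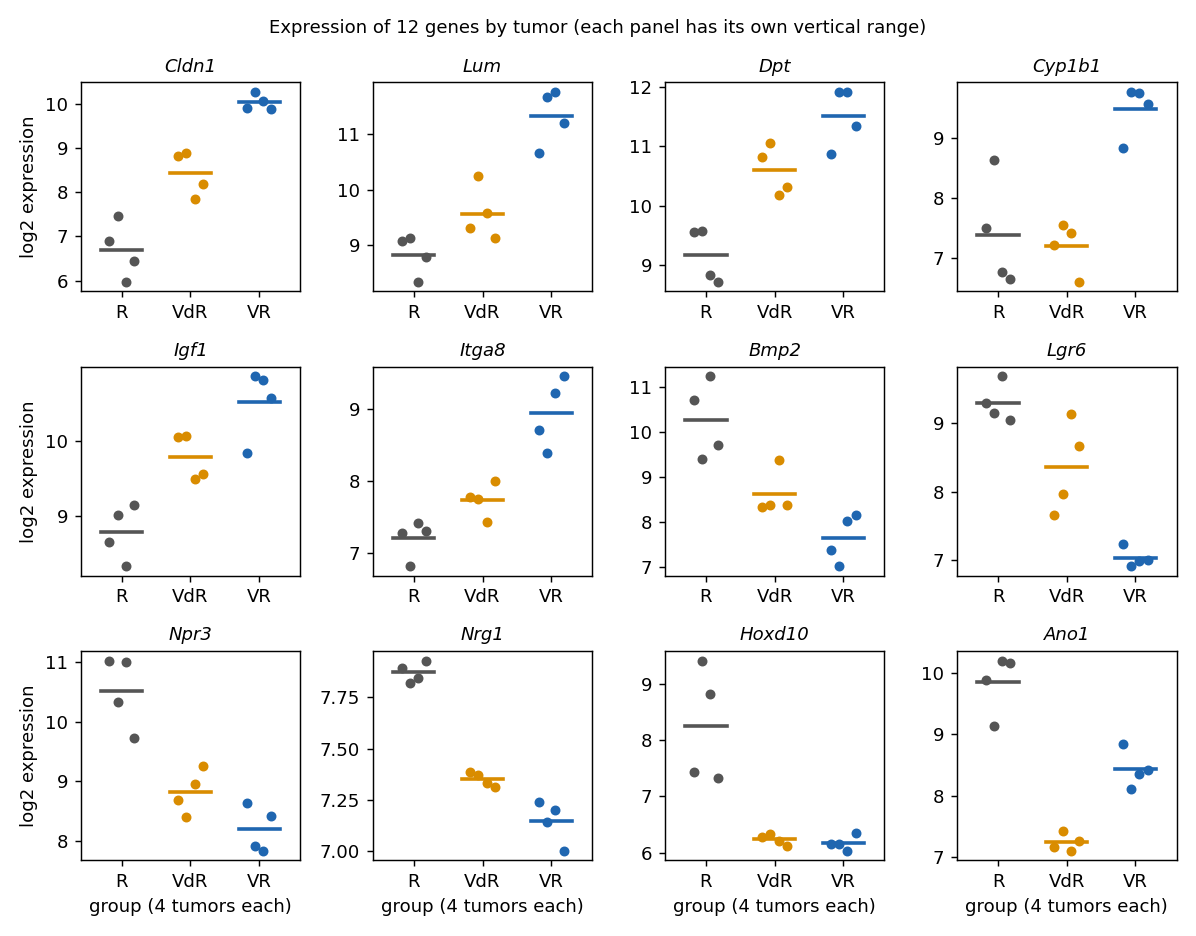
Log2 expression of 12 genes in each R, VdR and VR tumor (points) with the mean of each group (bar). Cldn1, Lum, Dpt, Cyp1b1, Igf1 and Itga8 were higher in every VR than in every R tumor, and Bmp2, Lgr6, Npr3, Nrg1, Hoxd10 and Ano1 were lower.

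Wnt genes changed in both directions. Of 73 genes tested, 9 rose and 9 fell, with a median of -0.04. Lgr6, a receptor for R-spondins that strengthens Wnt signals, measured 9.30, 9.15, 9.69 and 9.04 in the R tumors and 7.23, 6.91, 6.98 and 7.01 in the VR tumors. Lef1, a transcription factor through which beta-catenin acts, measured 8.06, 7.90, 8.23 and 7.87 in the R tumors and 6.68, 6.50, 6.46 and 6.89 in the VR tumors. Both genes separated the groups without overlap and with little spread inside each. Lgr6 fell by 2.26 (SE 0.26, adjusted p = 0.000206) and Lef1 fell by 1.38 (SE 0.15, adjusted p = 0.000167). Among ligands, Wnt7b fell by 1.02 with overlapping groups (adjusted p = 0.0101) and Wnt2b by 0.41 (adjusted p = 0.0139). Among receptors, Fzd3 fell by 0.83, while Fzd1 rose by 0.64 and Ror1, a receptor for Wnt5a, by 0.59.

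Secreted Wnt antagonists were among the rises. Sfrp1 rose by 1.06 (SE 0.24, adjusted p = 0.00901) and Sfrp2 by 0.85 (SE 0.14, adjusted p = 0.00179). Sfrp4 had the largest difference of the antagonists, 1.74 (adjusted p = 0.0286), but its groups overlapped. Its call was lost without R tumor 4 or 5 or VR tumor 2 or 4, in a fit of only the groups compared (adjusted p = 0.0564) and with trended and robust moderation (adjusted p = 0.0576). Dkk2 rose by 0.35 and Dkk3 by 0.23. Axin2, a feedback inhibitor induced by Wnt signals, rose by 0.27 (adjusted p = 0.00959). Rspo3, a ligand of the Lgr receptors, rose by 0.74 (adjusted p = 0.0107). Without R tumor 4 or VR tumor 2, 5 Wnt genes were lower in place of 9.

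Bmp2 fell, and modulators of BMP signals changed in both directions. Of 49 genes tested, 9 rose and 5 fell, with a median of -0.05. Beside Bmp2, Fst, the secreted activin and BMP binder follistatin, fell by 1.17 (SE 0.19, adjusted p = 0.0013), and Id4, a target of BMP signals, by 0.82 (adjusted p = 0.012). Grem1, the secreted BMP antagonist gremlin, fell by 0.71 (adjusted p = 0.0489) with overlapping groups, and Smad5, which carries BMP signals to the nucleus, by 0.18 (adjusted p = 0.0314). The Grem1 call was lost without R tumor 1, 2 or 4 or VR tumor 1, 2 or 4 and under several other settings, among them a fit of only the groups compared (adjusted p = 0.0809). The Smad5 call was lost without R tumor 2, 4 or 5 or VR tumor 1, 2 or 4. Chrdl1, another secreted antagonist, rose by 1.37 (SE 0.20, adjusted p = 0.000668). Eng, the endothelial co-receptor endoglin, rose by 0.91, the co-receptor gene Rgma by 0.65 and the target gene Id3 by 0.54. Bmp4 differed by 0.19 (adjusted p = 0.562) and Id1 by -0.25 (adjusted p = 0.117), with overlapping groups in both. The count of higher genes was 5 without R tumor 4, and the count of lower genes was 3 without VR tumor 1, 2 or 4.

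In the TGF-beta group, Tgfbr2 and Tgfbr3 rose while the ligands that were called fell. The receptor gene Tgfbr2 rose by 0.57 (adjusted p = 0.00095), and Tgfbr3, the co-receptor betaglycan, by 0.62 (adjusted p = 0.00385). Nrros, which holds latent TGF-beta on macrophages and microglia, rose by 0.84 (adjusted p = 0.000654). Tgif1, a repressor of the pathway, fell by 0.64 (adjusted p = 0.000327). Tgfb1 differed by -0.29 (adjusted p = 0.0386) and Inhba, a subunit of activin, by -0.37 (adjusted p = 0.021). The call of Tgfb1 was lost without R tumor 1, 4 or 5, without VR tumor 2, 4 or 5 and with each array centered on its median, and that of Inhba without R tumor 1 or 4 or VR tumor 4. Of 28 genes, 4 were higher and 6 lower, but the lower count was 1 without R tumor 1 or 4, 2 without VR tumor 2 and 3 without R tumor 5 or VR tumor 4 or 5.

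In the EGF family 3 ligand genes fell. Nrg1, a ligand of ErbB receptors, measured 7.89, 7.82, 7.85 and 7.93 in the R tumors and 7.24, 7.14, 7.20 and 7.003 in the VR tumors. The spread within each group was small beside the difference of -0.73 (SE 0.06, adjusted p = 4.99e-05). Btc, the EGF receptor ligand betacellulin, measured 9.43, 9.01, 9.53 and 9.54 in the R tumors and 8.44, 8.35, 8.26 and 7.91 in the VR tumors, and the groups did not overlap. Ereg, another such ligand, differed by -0.71 with overlapping groups (adjusted p = 0.0172), a call that was lost without R tumor 1 or 4. The receptor gene Egfr differed by 0.08 (95% interval -0.07 to 0.22, adjusted p = 0.41). In all, 3 of 14 genes of the family fell and 1 rose, which was Lrig3, with 0.52.

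Ligands and receptors of the PDGF, KIT, MET and TIE families went mostly the other way, with 12 of 38 higher and 1 lower and a median of 0.12. Gas6, the ligand of the Axl receptor, measured 8.93, 9.28, 8.58 and 8.37 in the R tumors and 9.77, 10.20, 10.41 and 10.03 in the VR tumors, with no overlap, and Axl itself rose by 0.31 (SE 0.05, adjusted p = 0.000928). Kitl, the stem cell factor that activates Kit, rose by 0.85 (adjusted p = 0.00481), and Angptl7, a secreted angiopoietin-like protein, by 0.98 (adjusted p = 0.00149). The GDNF-family co-receptors went apart: Gfra2 rose by 1.00 (adjusted p = 0.00816) and Gfra1 fell by 0.94 (adjusted p = 0.00073). Without R tumor 4 or VR tumor 4 the higher count was 7.

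Igf1, the growth factor that myofibroblasts and macrophages secrete, measured 8.66, 9.02, 8.34 and 9.16 in the R tumors and 9.85, 10.86, 10.81 and 10.57 in the VR tumors. No R tumor reached the lowest VR tumor, and the groups were 1.73 apart on average (SE 0.24, adjusted p = 0.000529). Igfbp5, an IGF-binding protein, rose by 0.99 (adjusted p = 0.0144), and Pappa, a protease that frees IGF from its binding proteins, by 0.88 (adjusted p = 0.0129). Igfbp3, the main carrier of IGF in serum, fell by 0.93 (adjusted p = 0.00586). Of 22 genes of the IGF and insulin group, 5 rose and 2 fell. The receptor gene Igf1r differed by -0.11 (adjusted p = 0.441). FGF genes gave 2 rises and 4 falls of 31, of which Fgf10 rose by 0.47 (adjusted p = 0.00271).

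Genes that report output of the Ras-ERK pathway were lower more often than higher, with 11 of 40 lower and 1 higher and a median of -0.13. Both groups carry the same H-RasV12. Ier3, an immediate early gene, measured 8.94, 8.07, 9.42 and 8.35 in the R tumors and 6.62, 7.16, 7.12 and 7.48 in the VR tumors, with no overlap. The ERK phosphatase genes Dusp4 and Dusp5 fell by 0.94 (adjusted p = 0.00413) and 0.46 (adjusted p = 0.00465), and the ETS factor gene Etv4 by 0.51 (adjusted p = 0.00895). Other reporters of the pathway had smaller differences that were not called: Dusp6 had -0.18 (95% interval -0.44 to 0.08), Spry2 -0.10 and Etv5 -0.15. Fos was the 1 gene that rose, by 0.57 (adjusted p = 0.00875). The higher count was 2 without R tumor 4 or 5 and 5 without VR tumor 2.

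Among genes linked to the YAP and SRF factors, 6 of 27 rose and 6 fell. Nt5e, the ecto-enzyme CD73 that makes adenosine from AMP, measured 9.70, 9.54, 9.88 and 8.82 in the R tumors and 8.17, 8.11, 7.84 and 7.87 in the VR tumors, without overlap. Tead4, a DNA-binding partner of YAP, fell by 0.79 (SE 0.11, adjusted p = 0.00065). The kinase genes Lats1 and Lats2, which restrain YAP, rose by 0.20 and 0.30. The other rises were Ccn1, Axl, Amotl2 and Nuak2, and Ccn1 was the largest of the 6. The other falls were Foxf2, Tead2, Ajuba and Tead3. In the Notch group, Notch2 rose by 0.69 (adjusted p = 0.00147) and Lfng, which adds sugars to Notch receptors, by 0.82 (adjusted p = 0.00141), while the target gene Hey1 fell by 0.70 (adjusted p = 0.00797). The Notch counts were 4 higher and 2 lower of 36, and 8 were higher without VR tumor 1. In the Hedgehog group 1 of 17 genes rose and 3 fell. Ptch1, the receptor and target, fell by 0.44 (adjusted p = 0.00392), the transcription factor gene Gli2 by 0.46 (adjusted p = 0.00983) and the co-receptor gene Gas1 by 0.43 (adjusted p = 0.00816).

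Of 33 genes of the semaphorin system, which guides axons, vessels and leukocytes, 10 rose and 4 fell. Nrp1, a co-receptor for semaphorins and VEGF, rose by 0.86 (SE 0.13, adjusted p = 0.000959) and Nrp2 by 0.41 (SE 0.07, adjusted p = 0.00184). Among ligands Sema3d rose by 1.31 (adjusted p = 0.00886) and Sema4a by 1.09 (adjusted p = 0.00114), whereas Sema4c fell by 0.86 (adjusted p = 0.00329). The receptor gene Plxnc1 rose by 0.91 and Plxna4 fell by 0.77. The other guidance families had changes in both directions. Slits, netrins and their receptors had 2 rises and 5 falls of 29, with Ntn1 higher by 0.68 (adjusted p = 0.0115) and its receptor gene Neo1 lower by 0.37 (adjusted p = 0.00033). The 19 ephrins and Eph receptors had 2 rises and 3 falls.

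Receptors for hormones, transmitters and lipids gave 17 rises and 8 falls of 111 genes, and the leading rises included receptors known from myeloid cells. The nucleotide receptor genes P2ry12 and P2ry6 rose by 1.30 and 1.00 (adjusted p = 0.000886 and 8.28e-05), the platelet-activating factor receptor gene Ptafr by 1.27 and the leukotriene receptor gene Cysltr1 by 1.19. Rgs18, a regulator of G proteins found in blood cells, rose by 2.18 (SE 0.25, adjusted p = 0.000202). These rises stood beside the macrophage markers given above. Other receptors fell. Htr1b, a serotonin receptor, fell by 1.06 (adjusted p = 0.00332), P2ry2, a receptor for ATP and UTP, by 0.72 (adjusted p = 0.00335) and Grm7, a glutamate receptor, by 0.71 (adjusted p = 0.00221). Rgs17 fell by 1.05 (SE 0.09, adjusted p = 5.06e-05), among 3 rises and 3 falls of 16 RGS genes. Without R tumor 4 or VR tumor 2, 5 receptors were lower in place of 8.

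In the TNF superfamily 10 of 39 genes rose and 5 fell, and without VR tumor 4 the rises numbered 6. Tnfsf10, the death ligand TRAIL, rose by 1.56 (SE 0.22, adjusted p = 0.000694), and Tnfrsf11a, the RANK receptor of osteoclast precursors, by 0.76 (adjusted p = 0.000536). The costimulatory pair of ligand Tnfsf9 and receptor Tnfrsf9 fell by 0.96 (adjusted p = 0.00429) and 1.19 (adjusted p = 0.0148). Among 39 nuclear receptors 4 rose and 6 fell. Nr3c1, the glucocorticoid receptor, rose by 0.61 (SE 0.08, adjusted p = 0.000483) and Esr1, the estrogen receptor alpha, by 0.43 (adjusted p = 0.0011). The vitamin D receptor gene Vdr fell by 0.61 (adjusted p = 0.0128) and the retinoic acid receptor gene Rarg by 0.38 (adjusted p = 0.00416). The nuclear receptors that fell numbered 3 without R tumor 1 and 2 without R tumor 4 or VR tumor 1.

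**Figure D3:**
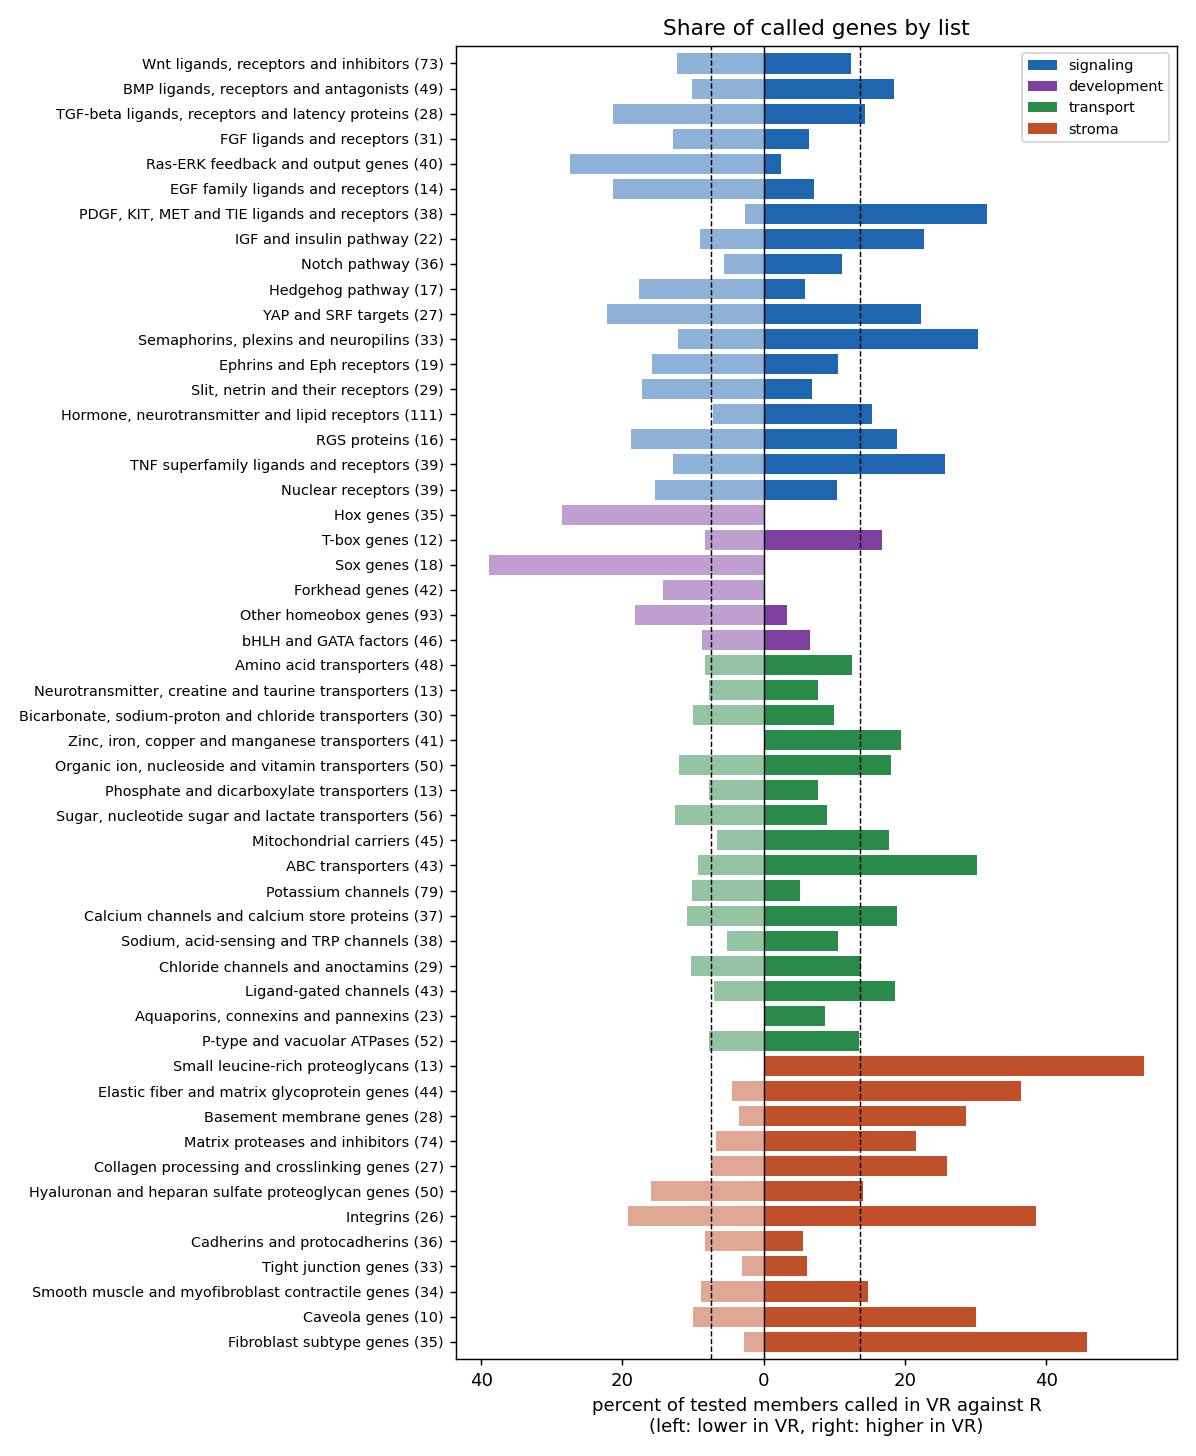
Percent of the tested members of each signaling, development, transport and stroma list that were called higher (right) or lower (left) in VR than in R tumors, with the number of tested members in brackets. The dashed lines mark the shares among all tested genes, 13.6% higher and 7.48% lower. Small leucine-rich proteoglycans and fibroblast subtype genes lie farthest to the right, and Sox and Hox genes farthest to the left.

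Transcription factor genes of body patterning were called lower more often than higher in VR tumors. Of 35 Hox genes, which mark position along the body and limb axes, 10 fell and 0 rose, with a median of -0.14. Hoxd10 measured 7.43, 9.41, 8.81 and 7.33 in the R tumors and 6.15, 6.15, 6.03 and 6.34 in the VR tumors. The VR tumors lay close together, and the R tumors were all higher and spread widely. Hoxc10 measured 6.10, 7.31, 7.55 and 6.00 in the R tumors and 5.50, 5.38, 5.47 and 5.46 in the VR tumors, with VR values near the filter level of 5.38. The other 8 falls were smaller, led by Hoxa9 with -0.46. Without R tumor 4, 6 Hox genes were lower.

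Sox factors, which direct stem cell and cartilage fates among others, had 7 falls and 0 rises of 18, with a median of -0.18. Sox2, a factor of pluripotent cells, had -0.67 (SE 0.22, adjusted p = 0.047), a call lost without R tumor 1, 4 or 5, without VR tumor 1, 2 or 4, without the filter and with robust moderation. Sox4 fell by 0.58 (SE 0.08, adjusted p = 0.000495), and the count moved with single tumors: 2 Sox genes were lower without R tumor 4 or VR tumor 2, 3 without R tumor 1 or VR tumor 4 and 4 without VR tumor 1. Forkhead factors had 6 falls and 0 rises of 42, with a median of -0.11, among them Foxf1 and Foxf2, targets of Hedgehog signals in mesenchyme, of which Foxf1 fell by 0.42 (adjusted p = 0.0017) and Foxf2 fell by 0.44 (adjusted p = 0.00335). Foxc2, a factor of vessel and mesenchyme development, fell by 0.44 (adjusted p = 0.00359).

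Other homeobox genes gave 17 falls and 3 rises of 93, with a median of -0.12. Irx1, an Iroquois factor, measured 9.19, 8.79, 9.31 and 8.98 in the R tumors and 8.14, 7.88, 8.18 and 8.01 in the VR tumors, without overlap. Its relatives Irx2 and Irx3 fell by 0.51 (adjusted p = 0.000379) and 0.42 (adjusted p = 0.00602), and the BMP target gene Msx2 by 0.53 (adjusted p = 0.000326). The mesenchymal factor gene Prrx1 had a difference of 0.06 (95% interval -0.10 to 0.22). The 3 rises were Meox2, Zeb2 and Tshz2, in order of size. Zeb2, a repressor of epithelial genes that myeloid cells also use, rose by 0.41 (adjusted p = 0.0128). The lower count was 9 without VR tumor 2, 10 without R tumor 4 and 11 without R tumor 1 or VR tumor 5.

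Tbx3, a T-box factor of limb and heart, measured 9.71, 9.23, 9.85 and 9.39 in the R tumors and 8.59, 8.28, 8.35 and 8.55 in the VR tumors. It fell by 1.10 with no overlap (adjusted p = 0.00108). Of 12 T-box genes, 2 rose, which were Tbx20 and Tbx15, and 1 fell. Neither rise was called without R tumor 1 or 4 or VR tumor 1, 4 or 5. Among 46 bHLH and GATA factors 3 rose and 4 fell. Ebf2, a factor of adipose and bone precursors, rose by 0.43 (adjusted p = 0.00327), and Twist2, a bHLH repressor of dermal mesenchyme, had -0.94 (adjusted p = 0.0186), a call lost without R tumor 4 or VR tumor 5. The mean level of the Hox list ran from 6.81 to 7.14 in R and from 6.66 to 6.77 in VR tumors, and that of the Sox list from 7.80 to 7.92 and from 7.56 to 7.71. The called shares were 28.6% lower for Hox, 38.9% for Sox and 18.3% for other homeobox genes.

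**Figure D4:**
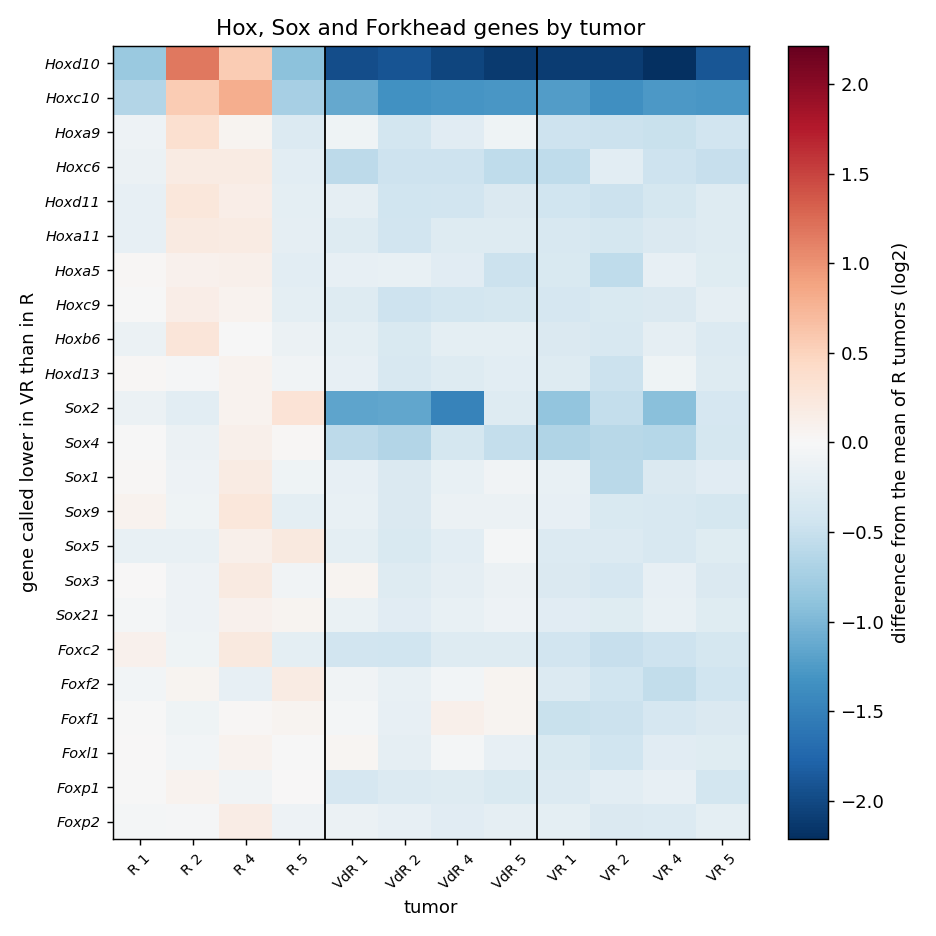
Difference of each tumor from the mean of the 4 R tumors (log2, color) for the 23 Hox, Sox and Forkhead genes called lower in VR than in R tumors, 1 row per gene and 1 column per tumor of the R, VdR and VR groups. Blue is lower and red higher, and Hoxd10 and Hoxc10 have the strongest colors in the VR columns.

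Transporters of nutrients changed in both directions. Slc7a11, the cystine importer of the xc- system that feeds glutathione synthesis, measured 9.18, 8.31, 9.94 and 8.82 in the R tumors and 7.49, 7.65, 7.82 and 7.34 in the VR tumors. Slc7a8, an exchanger of neutral amino acids, measured 7.72, 8.53, 7.57 and 8.13 in the R tumors and 9.79, 9.40, 9.16 and 9.26 in the VR tumors. Both separated the groups. The cystine importer fell by 1.49 (SE 0.25, adjusted p = 0.00184) and the exchanger rose by 1.41 (SE 0.20, adjusted p = 0.00055). Slc38a1 and Slc38a2, sodium-coupled importers of glutamine and other neutral amino acids, fell by 0.44 and 0.34 (adjusted p = 0.00316 and 0.0157). Slc36a1, a proton-coupled exporter from lysosomes, rose by 0.47 (adjusted p = 0.000513). The 48 amino acid transporters gave 6 rises and 4 falls, and 3 rises without R tumor 1 or VR tumor 4.

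The monocarboxylate transporter family, of which some members move lactate and pyruvate with a proton, split. Slc16a3, a lactate exporter induced by low oxygen, fell by 1.89 (SE 0.33, adjusted p = 0.00224) and Slc16a1 by 0.82 (SE 0.15, adjusted p = 0.00269). Slc16a7, a carrier of higher affinity for pyruvate, measured 6.01, 6.31, 6.14 and 6.13 in the R tumors and 7.34, 7.21, 7.15 and 7.34 in the VR tumors. The groups lay far apart for their small spread, with a rise of 1.11 (SE 0.11, adjusted p = 0.000102). Slc16a4 and Slc16a13 fell by 0.75 and 0.49, and Slc16a9 and Slc16a6 rose by 0.55 and 0.42. Of 56 sugar, nucleotide sugar and lactate transporters 5 rose and 7 fell.

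Genes that move protons and ions across membranes changed in both directions. Slc9a2, a sodium-proton exchanger, measured 9.49, 8.41, 9.45 and 9.58 in the R tumors and 7.51, 7.95, 7.66 and 8.37 in the VR tumors, and R tumor 2 lay just above the highest VR tumor. Slc9a9, an exchanger of endosomes, rose by 1.37 (SE 0.16, adjusted p = 0.00024). The transporters of bicarbonate, sodium against protons and chloride gave 3 rises and 3 falls of 30, those of phosphate and dicarboxylates 1 and 1 of 13, and those of neurotransmitters, creatine and taurine 1 and 1 of 13. Among subunits of the vacuolar proton pump, Atp6v1c1 and Atp6v1e1 of the cytosolic sector fell by 0.56 (adjusted p = 0.000526) and 0.42 (adjusted p = 0.00421), and Atp6v0a2 of the membrane sector rose by 0.30 (adjusted p = 0.0014), a call lost when the probesets of a gene were averaged. In all 7 of 52 P-type and vacuolar ATPase genes rose and 4 fell, and the rises numbered 4 without R tumor 1 or VR tumor 1.

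Metal transporters gave 8 rises and 0 falls of 41, with a median of 0.00. Steap4, a ferric and cupric reductase, rose by 1.60 (SE 0.34, adjusted p = 0.00651), and Slc31a2, a copper transporter of endosomes, by 0.74 (adjusted p = 0.00251). The other 6 rises were at most 0.47, the value of Slc41a3. The iron exporter gene Slc40a1 had a difference of -0.87 with overlapping groups (adjusted p = 0.0828), and was called lower with array weights (adjusted p = 0.0105) and without VR tumor 5 (adjusted p = 0.0169). Without VR tumor 5, 5 of the metal transporter genes were higher. Among 50 carriers of organic ions, nucleosides and vitamins, 9 rose and 6 fell. Slco2b1, an organic anion importer, rose by 1.14 (adjusted p = 0.000238), Slc22a5, the carnitine importer, by 0.49 (adjusted p = 0.00285) and Slc23a2, a vitamin C importer, by 0.36 (adjusted p = 0.00944). Slc5a6, the importer of pantothenate and biotin, differed by 0.13 (95% interval -0.01 to 0.26, adjusted p = 0.166).

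Of 45 mitochondrial carriers 8 rose and 3 fell. Slc25a20, which brings acylcarnitines into mitochondria for oxidation, rose by 0.51 (SE 0.08, adjusted p = 0.000864) and Slc25a12, an aspartate-glutamate carrier, by 0.67 (SE 0.10, adjusted p = 0.00114). Slc25a16 and Slc25a42 are carriers linked to coenzyme A, and Slc25a16 rose by 0.32 (adjusted p = 0.00817), while Slc25a42 differed by 0.11 (adjusted p = 0.376). Slc25a37, the mitochondrial iron importer mitoferrin, fell by 0.65 (adjusted p = 0.0134).

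ABC transporters rose in 13 of 43 cases and fell in 4. Abca8a measured 7.66, 7.84, 7.76 and 7.24 in the R tumors and 9.13, 9.46, 9.49 and 9.65 in the VR tumors. Abca9, its neighbor in the genome, measured 7.45, 7.50, 7.47 and 7.46 in the R tumors and 9.03, 8.80, 9.18 and 9.30 in the VR tumors, and in both the groups were far apart with little spread. They rose by 1.81 (adjusted p = 5.06e-05) and 1.61 (adjusted p = 5.06e-05). Abca8b, from the same cluster of related genes, rose by 0.87, and probes shared between these genes were not tested for. Abca1 and Abcg1, exporters of cholesterol, rose by 0.53 (adjusted p = 0.0164) and 0.52 (adjusted p = 0.00389). The peptide transporter genes Tap1 and Tap2, which load MHC class I, were 2.84-fold and 1.61-fold higher.

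Ion channel genes had large single changes in both directions. Ano1, a calcium-gated chloride channel, measured 9.89, 9.14, 10.20 and 10.16 in the R tumors and 8.85, 8.11, 8.36 and 8.43 in the VR tumors. Its VdR values were 7.17, 7.43, 7.11 and 7.27, below every VR tumor. Kcnq5, a voltage-gated potassium channel, measured 8.89, 9.002, 8.86 and 8.86 in the R tumors and 8.48, 6.71, 7.33 and 6.94 in the VR tumors. VR tumor 1 stood close to the R tumors and apart from the other VR tumors, and the difference was -1.54 (SE 0.28, adjusted p = 0.00253). Cacna1h, a low-voltage calcium channel, measured 8.81, 7.80, 9.14 and 8.99 in the R tumors and 6.64, 6.72, 6.84 and 7.13 in the VR tumors, without overlap.

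The muscle calcium channel gene Cacna1c fell by 0.86 (SE 0.14, adjusted p = 0.00147). Parts of the store-operated calcium entry system were higher: Stim1, the sensor of calcium stores, by 0.40 (adjusted p = 0.00898) and the channel gene Orai2 by 0.32 (adjusted p = 0.00223). Trpc1 rose by 0.85 (SE 0.13, adjusted p = 0.000971). The AMPA glutamate receptor genes Gria4, Gria3 and Gria1 rose by 1.40, 1.24 and 0.73. By list, 4 of 79 potassium channels rose and 8 fell, 7 of 37 calcium channel and store genes rose and 4 fell, and 8 of 43 ligand-gated channels rose and 3 fell. Without R tumor 4 or VR tumor 2, 4 potassium channels were lower, and without R tumor 1 or VR tumor 4, 5 were. The ligand-gated rises numbered 3 without VR tumor 2 or 5, 4 without R tumor 1, 4 or 5 and 5 without VR tumor 4. Of 38 sodium, acid-sensing and TRP channels 4 rose and 2 fell, of 29 chloride channels and anoctamins 4 rose and 3 fell, and of 23 aquaporins, connexins and pannexins 2 rose and 0 fell. The calcium rises numbered 4 without VR tumor 2, and 2 of the falls were left without R tumor 4 or VR tumor 2.

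Among the signaling, development, transport and stroma lists, the 4 largest shares of rises were in stroma lists. Of 13 small leucine-rich proteoglycans, which bind collagen fibrils and growth factors, 7 rose and 0 fell, with a median of 0.32. Beside Lum and Prelp, Aspn (asporin) rose by 1.23 (adjusted p = 0.0034), Podn (podocan) by 1.15 (adjusted p = 0.00291) and Dcn (decorin) by 0.32 (adjusted p = 0.00917). Bgn, which encodes biglycan, differed by 0.16 (95% interval 0.01 to 0.30, adjusted p = 0.122). Leaving out any single R or VR tumor left 7 of them higher.

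Elastic fiber and other matrix glycoprotein genes gave 16 rises and 2 falls of 44, with a median of 0.24. Efemp1, the matrix protein fibulin-3, measured 10.20, 10.11, 9.96 and 10.30 in the R tumors and 11.79, 11.75, 11.69 and 11.72 in the VR tumors. The tumors of each group lay close together beside the difference of 1.60 (SE 0.12, adjusted p = 4.64e-05). Fbln5, needed for elastic fiber assembly, rose by 0.78 (adjusted p = 0.00192), Cilp, a TGF-beta-binding cartilage protein, by 1.51 (adjusted p = 0.00161) and Srpx2 by 1.32 (adjusted p = 0.000864). Other matrix genes of high level were not called: Fn1, which encodes fibronectin, had 0.01 (95% interval -0.15 to 0.16), Tnc, which encodes tenascin C, 0.04 (-0.30 to 0.37) and Postn, which encodes periostin, 0.26 (0.05 to 0.48). The bone matrix gene Ibsp measured 7.20, 5.82, 7.74 and 6.64 in the R tumors and 5.36, 5.25, 5.28 and 5.51 in the VR tumors (adjusted p = 0.00745). Of the VR tumors 3 lay below the filter level of 5.38, so no fold is given.

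Basement membrane genes rose in 8 of 28 cases, and 1 fell. The laminin chains split. Lama2 measured 9.65, 9.79, 9.62 and 8.68 in the R tumors and 10.43, 10.83, 11.09 and 11.20 in the VR tumors. Lama5 measured 9.38, 8.71, 9.79 and 9.76 in the R tumors and 7.53, 7.54, 8.01 and 8.03 in the VR tumors. The groups did not overlap in either gene, with a rise of 1.45 (SE 0.24, adjusted p = 0.00159) for Lama2, a chain of muscle and nerve laminins, and a fall of 1.63 (SE 0.27, adjusted p = 0.00156) for Lama5, a chain of mature epithelial and vessel laminins. The rises numbered 5 without R tumor 4 and 4 without VR tumor 4.

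Among 26 integrin genes 10 rose and 5 fell, with a median of 0.25. Itga8, a receptor for nephronectin on smooth muscle and fibroblasts, measured 7.27, 6.81, 7.41 and 7.30 in the R tumors and 8.70, 8.39, 9.22 and 9.45 in the VR tumors. Itga1, a collagen receptor, rose by 1.05 (adjusted p = 0.0106), whereas Itga2, another collagen receptor, measured 10.17, 9.42, 10.64 and 9.74 in the R tumors and 8.62, 8.59, 8.96 and 9.19 in the VR tumors. Itgb3, the beta chain of vitronectin receptors, measured 10.03, 9.34, 10.30 and 9.77 in the R tumors and 8.27, 8.48, 8.55 and 9.01 in the VR tumors. Both of these genes were lower in every VR than in every R tumor, by 1.16 (SE 0.22, adjusted p = 0.00334) and 1.28 (SE 0.20, adjusted p = 0.00118). The fibronectin receptor gene Itga5 fell by 0.51 (adjusted p = 0.00224) and Itgav rose by 0.34 (adjusted p = 0.0125). The leukocyte integrin genes Itgam, Itga4 and Itgb2 rose by 1.46, 1.36 and 0.81, beside the macrophage markers. The falls numbered 3 without R tumor 4 or VR tumor 2.

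Proteases and their inhibitors gave 16 rises and 5 falls of 74. Adamts8 and Adamts5, secreted proteases of which Adamts5 cleaves aggrecan, rose by 1.52 (SE 0.22, adjusted p = 0.000762) and 1.39 (SE 0.25, adjusted p = 0.00228). Ctsk, the collagen-degrading cathepsin K, measured 7.68, 7.57, 7.74 and 7.55 in the R tumors and 8.33, 9.23, 9.21 and 9.19 in the VR tumors, without overlap. Mmp10, or stromelysin 2, measured 10.01, 8.23, 10.85 and 9.77 in the R tumors and 8.20, 7.58, 7.58 and 8.05 in the VR tumors, and R tumor 2 lay next to the highest VR tumor. Plau, the urokinase gene, fell by 0.84 (adjusted p = 0.00277), while the inhibitor genes Reck and Timp3 rose by 0.74 (adjusted p = 0.00158) and 0.37 (adjusted p = 0.00499). Mmp13 had a difference of -0.89 that was not called (adjusted p = 0.133), but it was called lower with array weights (adjusted p = 0.013) and in a fit of only the groups compared (adjusted p = 0.0172). The falls numbered 2 without R tumor 4 and 3 without R tumor 1 or VR tumor 1, 2 or 4.

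For collagen processing, Pcolce2 and Pcolce, enhancers of procollagen trimming, rose by 1.78 (SE 0.25, adjusted p = 0.000645) and 0.37 (SE 0.07, adjusted p = 0.00455), among 7 rises and 2 falls of 27 genes. Lox, the lysyl oxidase that crosslinks collagen, had 0.22 (95% interval -0.25 to 0.70). Of 50 genes for hyaluronan and heparan sulfate proteoglycans 7 rose and 8 fell. Sulf2, which trims heparan sulfate, rose by 0.75 (adjusted p = 0.000371), the glypican genes Gpc6 and Gpc4 by 1.15 and 0.46, and the syndecan genes Sdc2 and Sdc4 fell by 0.27 and 0.28 (adjusted p = 0.0101 and 0.0118). Without R tumor 1 or 4 the falls numbered 5.

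Contractile genes of the myofibroblast were called about as often as genes in general. Acta2, the smooth muscle actin that defines myofibroblasts, had a mean of 11.91 ± 0.51 (SD) over the 4 R tumors and of 12.11 ± 0.17 (SD) over the 4 VR tumors, with overlapping groups. Of 34 contractile genes 5 rose and 3 fell. Myl9, a myosin light chain, rose by 1.14 (adjusted p = 0.00702), and Csrp2, a LIM protein of smooth muscle, fell by 0.60 (adjusted p = 0.000385). Of 10 caveola genes 3 rose and 1 fell. Skeletal muscle markers varied between tumors of every group, from 6.58 to 8.64 in R and from 6.50 to 7.98 in VR tumors as a mean over 22 genes, and 0 of 22 were called. Junction genes other than Cldn1 gave few calls, with 2 of 33 tight junction genes higher and 1 lower, and 2 of 36 cadherins and protocadherins higher and 3 lower. Pkp1, a desmosome protein, fell by 1.54 (SE 0.22, adjusted p = 0.00068).

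Markers of fibroblast subtypes had the largest median of the stroma lists, 0.52, with 16 of 35 higher and 1 lower. They include Dpt and Penk, and Dpp4, a protease of fascia fibroblasts, which rose by 1.16 (adjusted p = 0.00365). C4b, a complement gene, rose by 1.75 (adjusted p = 0.0147). Cd34, a marker of adventitial fibroblasts and vessels, was the 1 gene that fell, by 0.47 (adjusted p = 0.00175). Pdgfra, the general fibroblast receptor, rose by 0.30 (adjusted p = 0.0118). Without VR tumor 2 or 4, 10 were higher. Some members, such as Dpt, Sfrp4 and Dpp4, also stand in the matrix, Wnt and protease lists.

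Among host cell markers, 6 of 25 endothelial genes were higher and 0 lower. Tek, the angiopoietin receptor, measured 7.57, 7.30, 7.26 and 7.49 in the R tumors and 8.38, 8.46, 8.64 and 8.18 in the VR tumors, and Ptprb, its phosphatase partner, rose by 1.02 (adjusted p = 0.000831). Kdr, the main VEGF receptor, rose by 0.90 (adjusted p = 0.00629). Pecam1 and Cdh5, which define endothelium, had 0.40 (95% interval 0.00 to 0.79) and 0.24 (-0.16 to 0.64) and were not called. The mean endothelial level ran from 8.44 to 8.98 in R and from 8.85 to 9.24 in VR tumors. Dendritic and B cell markers were higher in 8 of 12 cases, led by Cd209a with 1.67 and Ccr7 with 1.23, and natural killer and T cell markers in 5 of 13, led by Il2rb with 1.56 and Ncr1 with 1.33. The T cell gene Cd3e had -0.22 (adjusted p = 0.113). In the proliferation list 1 of 27 genes was higher, Mki67 had 0.47 (adjusted p = 0.0741) and Top2a 0.08. Mki67 was called higher with array weights (adjusted p = 0.00568), with the replicate block (adjusted p = 0.0456) and without R tumor 5 (adjusted p = 0.0177). The counts of the other cell type lists were 1 higher and 1 lower of 16 for adipocytes, 0 and 1 of 11 for pericytes, 2 and 1 of 11 for mast cells, 0 and 2 of 13 for keratinocytes, and 0 and 0 of 5 for lymphatic endothelium, 2 and 0 of 10 for Schwann cells and nerve and 1 and 0 of 8 for neutrophils.

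**Figure D5:**
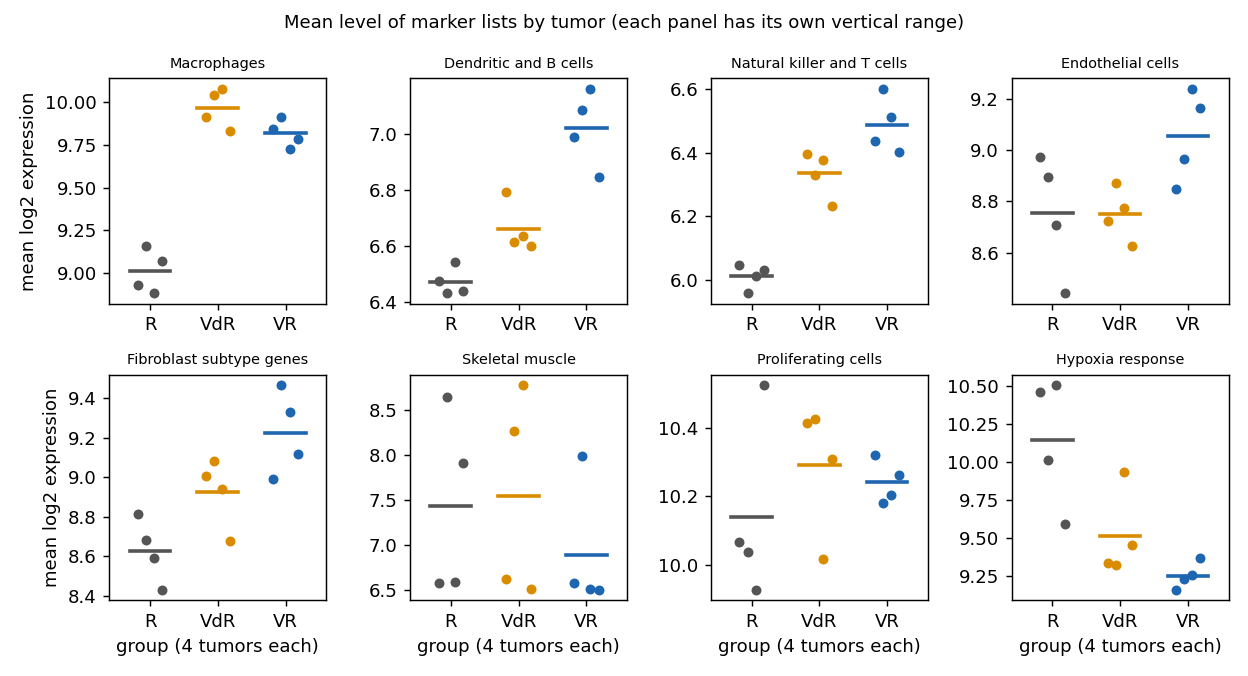
Mean log2 level of the genes of 8 cell type and stroma lists in each R, VdR and VR tumor (points) with the group mean (bar). Macrophage, dendritic and natural killer lists were higher in every VR than in every R tumor, the hypoxia list was lower, and skeletal muscle and proliferation levels overlapped.

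VR tumors also differed from VdR tumors, whose Vnn1 is catalytically deficient, in fewer genes. Vnn1 itself measured 11.37, 11.49, 11.66 and 11.73 in the VdR tumors, all above the VR tumors, and VR minus VdR was -0.69, with p = 0.0286 in the two-sided exact permutation test. In the same fit 1.77% of the genes tested had higher and 1.67% had lower values in VR tumors than in VdR tumors. Among the genes above, Cldn1 was 1.60 higher in VR than in VdR tumors (adjusted p = 0.0181), Lum 1.77 (adjusted p = 0.0122) and Cyp1b1 2.27 (adjusted p = 0.0155). Itga8 was 1.21 higher (adjusted p = 0.017), Ctsk 1.15 (adjusted p = 0.0198) and Tek 0.77 (adjusted p = 0.0188). Lgr6 had a difference of -1.33 (adjusted p = 0.0228), with VdR values of 7.66, 7.97, 9.14 and 8.67 that lay above all VR and reached into the R range in tumor 4. Sfrp2 went the other way: it was higher in VR than in R tumors but lower than in VdR tumors, with a difference of -0.89 (adjusted p = 0.0126).

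Many other genes gave no call between VR and VdR tumors. For Hoxd10 the difference was -0.07 (SE 0.37), for Gas6 0.05 (SE 0.19), for Slc7a11 -0.17 (SE 0.25), for Slc16a7 -0.08 (SE 0.11) and for Itgb3 -0.05 (SE 0.20). VdR minus R gave -2.01, 1.26, -1.32, 1.19 and -1.23 for these genes, with the R tumors shared between both comparisons. Ano1 was lower in both VdR and VR than in R tumors, with -2.61 and -1.41, and the VR tumors lay 1.19 above the VdR tumors (adjusted p = 0.017). By list, the matrix glycoprotein genes gave 6 rises and 0 falls of 44 in VR over VdR tumors. Small leucine-rich proteoglycans gave 3 and 0 of 13 and the Hox genes 0 and 0 of 35. Dendritic and B cell markers gave 5 and 0 of 12, and endothelial genes 4 and 0 of 25. Natural killer and T cell markers gave 3 and 0 of 13. Falls outnumbered rises among amino acid transporters, with 0 and 3 of 48, and Wnt genes, with 1 and 3 of 73. Over all genes tested the shares were 1.77% and 1.67%. These counts are the least firm of the comparison, since leaving out single tumors took the number of genes higher in VR than in VdR from 293 to as few as 32, without VR tumor 4. Without that tumor Cldn1, Cyp1b1, Itga8, Ctsk, Tek, Lgr6 and Ano1 were not called between VR and VdR tumors, and without VR tumor 2 Cldn1, Ctsk, Tek and Lgr6 were not. Ctsk and Lgr6 also lost their calls without VR tumor 5, and Tek and Lgr6 without VdR tumor 5. Lum and Sfrp2 were called with each single tumor left out, but none of these 9 genes was called between VR and VdR tumors with the methods' t-test (adjusted p = 0.106 for Lum and 0.115 for Sfrp2) or with a minimum change of 1.5-fold.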

How the data were processed

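RNA of 12 subcutaneous tumors, 4 in each of the groups R, VdR and VR, was hybridized by the authors to Affymetrix mouse gene arrays after amplification from small amounts of RNA. The values of the deposited table are on the log2 scale, 1 for each probeset, and the authors made them with RMA (background correction, quantile normalization over all arrays and summarization of probes) in the oligo package, whose version is not given in the sources used here. Quantile normalization gives the probe values of all arrays the same distribution before they are summarized, so a shift of all genes in a group would not be seen. Array medians of the summarized values still ran from 6.68 to 6.74 in R and from 6.66 to 6.77 in VR tumors. Scan dates or batches are not given in the labels, and the number of arrays limits the precision.

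Of 35556 probesets, 21789 had 1 gene symbol, 1621 had several and 12146 had none. Symbols were updated through the Entrez identifier, which matched for 21698 probesets, and the probeset with the highest mean stood for a gene. Of 19938 genes, 16573 exceeded the 25th percentile of the whole table (5.38) on 4 or more arrays and entered the tests. A linear model with 1 coefficient per group was fitted over all 12 arrays with limma 3.58.1 in R 4.3.3 (lmFit and eBayes, two-sided), and p-values were adjusted over all genes tested by the method of Benjamini and Hochberg. Called, rose and fell mean an adjusted p under 0.05. The fit was tested on simulated data with known changes. Of 50 genes each changed by 1.5-fold, 2-fold, 3-fold and 4-fold, it called 46, 47, 50 and 49 in the right direction. Among 198 calls 6 were false. The simulated noise was independent between genes and few genes were changed, unlike in these tumors. The simulation therefore checks the computation and not the error rate here.

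Genes were described in 66 lists written by hand, by their counts and medians only. The members and lists were chosen with earlier results of these data known. Genes were named by a rule: Vnn1, the 15 largest rises and falls without overlap of R and VR tumors, up to 6 called members of a list in each direction, and some members fixed for each list, called or not. A gene can stand in several lists. As alternatives, the filter was dropped or tightened, and further fits used averaged probesets, robust moderation with a trend, weights for arrays, cyclic loess, arrays centered on their medians, a block for the replicate number, a fit with only the compared groups, 1.5-fold as the least change tested, the methods' t-test (named in the study for qRT-PCR and run here with Benjamini-Hochberg adjustment), each tumor left out in turn, or a list level as a covariate, the last chosen after seeing the data.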

Additional observations from a re-analysis of the deposited data

Results flagged for a closer look

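In 30 of 588 groups of 4 tumors, formed by the R or the VR tumors for each of 228 genes and 66 lists, 1 tumor stood far from the other three by Dixon's ratio (its gap to the nearest tumor over the range of the group, above its 95% critical value), and chance gives about 5%. No explanation was tested for any of them. VR tumor 1 was low for the protease gene Ctsk (8.33 against 9.19 to 9.23, ratio 0.963) and for Pcolce2 (9.28 against 9.87 to 9.98, ratio 0.842). VR tumor 2 was high for the mean of the skeletal muscle list (7.98 against 6.50 to 6.58, ratio 0.949) and for Slc16a13 (ratio 0.884). It was low for Angptl7 (7.11 against 7.89 to 7.96, ratio 0.912), Slc16a4 (ratio 0.914) and Rgma (ratio 0.846), and for the T-box (ratio 0.996) and Forkhead lists (ratio 0.899).

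VR tumor 4 was high for Ntn1 (ratio 0.957) and Abcg1 (ratio 0.917) and low for Lats1 (ratio 0.982) and Atp6v1c1 (ratio 0.847). VR tumor 5 was low for the mean of the mast cell list (6.77 against 8.01 to 8.23, ratio 0.849), for Rgs18 (8.66 against 9.14 to 9.18, ratio 0.92) and for Lfng (ratio 0.886). It was high for Atp6v0a2 (ratio 0.927) and for the ligand-gated channel list (ratio 0.862).

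Among R tumors, tumor 1 was high for Il2rb (ratio 0.892). Tumor 2 was low for the sodium-proton exchanger gene Slc9a2 (8.41 against 9.45 to 9.58, ratio 0.887) and for the cadherin list (ratio 0.892). Tumor 4 was high for 4 lists, those of ephrins (ratio 0.879), Forkhead genes (ratio 0.867), other homeobox genes (ratio 0.848) and phosphate transporters (ratio 0.832). Tumor 5 was low for Gria3 (6.42 against 7.61 to 7.83, ratio 0.844), Lama2 (8.68 against 9.62 to 9.79, ratio 0.85) and the Notch list (ratio 0.902), and high for Pcolce (ratio 0.922) and Etv5 (ratio 0.9).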

How the results depend on the processing

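The counts of genes called between VR and R tumors, 2261 higher and 1239 lower, stayed within 1.5 times of these values without the filter, with a stricter filter, with averaged probesets, trended and robust moderation, cyclic loess, centering, and a fit of only the groups compared. Array weights gave 3346 higher and 2321 lower, a minimum change of 1.5-fold gave 64 and 12, and the methods' t-test gave 1448 and 672. With the macrophage level as a covariate the counts were 3 and 55, and with the hypoxia level 423 and 281. The reported fit shared 4 called genes with the former and 493 with the latter. Leaving out single tumors gave 1682 to 2306 higher and 776 to 1311 lower genes, with 776 without R tumor 4 and 817 without VR tumor 2. Between VR and VdR tumors, 293 and 277 genes became 455 and 429 with array weights, 426 and 304 with cyclic loess, 255 and 152 with centering and 12 and 18 with the methods' t-test. The minimum change of 1.5-fold left 0 and 0 (limma's treat), where 3182 genes had an unadjusted p under 0.05 with no minimum change. Leaving out single tumors gave 32 to 320 higher and 54 to 234 lower. Of the genes called, 51.4% were higher in VR than in VdR tumors, 58.4% with cyclic loess and 62.7% with centering. The share was 44.4% in a fit of only the groups compared, 40% with the methods' t-test and between 37.2% (without VR tumor 4) and 58% (without VdR tumor 2) with single tumors left out.

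With the replicate number as a block, the VR and R tumors differed in 2421 genes upward and 1506 downward, and the VR and VdR tumors in 304 and 317. As a check of whether the numbers pair the samples, deviations of tumors from their group means were correlated. For VR and R tumors they gave -0.08, 0.40, 0.15 and -0.15 for numbers 1, 2, 4 and 5. Only number 2 had its own number as the best partner. Between VR and VdR tumors the correlations were 0.13, 0.23, 0.05 and 0.15, with number 4 under 0.1, and numbers 2 and 5 were their own best partners. These few correlations cannot settle whether the numbers pair the samples.

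Among 228 of the genes named, the direction turned only for genes that were not called. Array weights gave -0.0398 for Acta2, -0.0439 for Fn1 and -0.137 for Tnc, and centering gave -0.0043 for Fn1. With single tumors left out, the difference ran from -0.0414 to 0.324 for Acta2, from -0.0146 to 0.293 for Bmp4, from -0.0417 to 0.032 for Fn1 and from -0.0786 to 0.121 for Tnc, with the lowest value without R tumor 5 in each. A minimum change of 1.5-fold removed the calls of 179 of the 228 genes and the methods' t-test those of 51. Calls absent from the reported fit appeared for Mki67, Mmp13 and Slc40a1, as given above, for Cd3e with array weights (adjusted p = 0.0473), for Slc5a6 with cyclic loess (adjusted p = 0.0463), for Id1 without R tumor 2 (adjusted p = 0.041) and for Postn without R tumor 1 (adjusted p = 0.0371). The cause of these changes was not tested.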
